A study of Arabidopsis thaliana with 24 samples.

Results

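The 8 genes described here encode phytochrome-interacting factors (PIFs) and close relatives in Arabidopsis thaliana: PIF1 (AT2G20180, listed as PIL5), PIF3 (AT1G09530), PIF4 (AT2G43010), PIF5 (AT3G59060, listed as PIL6), PIF7 (AT5G61270), PIF8 (AT4G00050, listed as UNE10), HFR1 (AT1G02340) and PIL1 (AT2G46970). They were taken by gene identifier, all 8 were found among 32833 genes with counts, and all 8 passed the filter on low counts in each fit. The RNA came from whole 9-day-old seedlings grown on 1/2 MS (diluted Murashige and Skoog salts) with sucrose, of the mutant line exa1-1 and of the wild type (WT) Col-0. Each treatment lasted 60 min and each group had 3 libraries, which the series text calls independent biological replicates. In the salt series the groups were exa1-1 on 200 mM NaCl, exa1-1 on 1/2 MS, WT on 200 mM NaCl and WT on 1/2 MS. In the heat series they were exa1-1 at 39 °C, exa1-1 at 23 °C, WT at 39 °C and WT at 23 °C. The EXA1 protein carries a GYF domain and is known as a host factor that potexviruses need. A single mutant line was used, and the sources used here give neither the light regime nor the time of day of sampling.

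PIFs are basic helix-loop-helix (bHLH) transcription factors that promote cell elongation and hold back greening. Light-activated phytochromes bind them and mark them for degradation or loss of activity, so PIF proteins build up in darkness, in shade and, for some members, in warmth. PIF4, PIF5 and PIF7 drive auxin and growth genes by binding G-box and related DNA motifs. HFR1 and PIL1 are induced by PIFs in shade, and HFR1 lacks a functional DNA-binding region and pairs with PIFs, which keeps them off DNA. DELLA proteins bind PIFs in the same inhibitory way, and the evening complex of the clock (ELF3, ELF4, LUX) represses transcription of PIF4 and PIF5. These genes control elongation in the seedling, and their transcript levels say nothing directly of protein levels.

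In TAIR10.1 the genes lie apart from each other: PIF1 at chr2:8704024-8707009 (minus strand), PIF3 at chr1:3075768-3079654 (plus), PIF4 at chr2:17886101-17889087 (plus) and PIF5 at chr3:21827905-21830837 (minus). PIF7 is at chr5:24638491-24640765 (minus), PIF8 at chr4:17639-20183 (plus), HFR1 at chr1:465616-467880 (minus) and PIL1 at chr2:19295431-19297858 (minus). The start regions of the genes were searched for motifs that PIFs themselves bind, because members of the family can act on each other's genes. The window ran from 250 bases before to 50 bases after the annotated gene start in TAIR10.1, whose chromosomes 1 to 5 carry the TAIR10 sequence, and both strands were read. The G-box CACGTG was found in 1 of the 8 windows, that of PIF5, against 7.68% of 27443 windows of the same kind. The PBE-box CACATG was found in 1 of 8, that of PIF7, against 12.9% of all windows. There its 2 matches, CACATG and its reverse complement CATGTG, overlapped each other. The evening element AAAATATCT was found in 0 of 8, against 2.82% of all windows. A match is a string of letters and not a site, and its absence says only that these letters are missing from these windows. The upstream sequence of PIF5 (minus strand, chr3:21830838-21831087) is shown because it holds the only G-box, which starts 165 bases before the gene start. The PIF7 stretch (minus strand, chr5:24640727-24640756) lies just after its gene start and holds both PBE-box matches. Capitals mark the motif letters.
PIF5: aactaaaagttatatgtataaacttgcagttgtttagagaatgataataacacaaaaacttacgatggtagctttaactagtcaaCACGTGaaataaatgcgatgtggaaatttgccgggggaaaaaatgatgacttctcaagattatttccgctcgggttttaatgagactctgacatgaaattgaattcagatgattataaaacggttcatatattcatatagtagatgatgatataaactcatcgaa
PIF7: tcctttgccaCACATGTGcttcgtccacat

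Library totals ran from 17658196 to 20992263 counts. EXA1 served as a check of the genotype labels: it had 21.5 to 47.4 CPM (counts set to a common library size) in exa1-1 libraries, against 95.7 to 228 CPM in WT libraries, and the reads that remain in the mutant were not mapped to parts of the gene here. Root and green tissue markers were both detected in every group, with no marker gene at 0 throughout. The scaling factors that edgeR computed by its trimmed mean of M-values (TMM) were 0.578 to 0.633 in the 39 °C libraries and 1.10 to 1.27 in all others. CPM values below are on TMM-scaled library sizes. Fold changes and adjusted p-values are from edgeR's quasi-likelihood test with Benjamini-Hochberg adjustment over all genes tested, with a call at an adjusted p under 0.05, and each error is an SE over libraries unless marked SD. In whole seedlings, fewer cells of a type and less RNA per cell cannot be told apart.

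Levels can be compared between the genes only per length, on the FPKM scale, where a count is divided by gene length and library total. PIF3 and PIF5 were the most abundant of the 8 on unstressed 1/2 MS. In exa1-1 on 1/2 MS, PIF5 had 17.1 ± 0.399 FPKM and PIF3 16.0 ± 0.522 (SD, n = 3), which were 30.6% and 28.5% of the summed FPKM of the 8 genes. In WT on 1/2 MS, PIF5 had 27.4 ± 1.68 FPKM and PIF3 26.4 ± 1.43 (SD, n = 3), 33.1% and 31.9% of the sum. PIL1 and HFR1 were the least abundant there, at 1.13% and 1.40% of the sum in exa1-1 and 2.13% and 1.37% in WT. The make-up changed with each stress. Under NaCl, PIF3 alone gave 55.7% of the sum in exa1-1 and 55.9% in WT. At 39 °C, PIF4 took the first place, with 48.4% in exa1-1 and 46.5% in WT. The summed FPKM of the 8 genes was lower in exa1-1 in both unstressed sets: 56.0 ± 1.96 in exa1-1 against 82.8 ± 4.78 in WT on 1/2 MS, and 48.3 ± 4.78 in exa1-1 against 69.7 ± 2.22 in WT at 23 °C (SD, n = 3 each). At 39 °C it was lower as well, at 28.1 ± 2.54 in exa1-1 against 37.3 ± 1.12 in WT (SD, n = 3 each). Under NaCl the sums were 90.9 ± 4.80 in exa1-1 and 96.3 ± 5.89 in WT (SD, n = 3 each).

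Each gene had its own order of the 8 groups in FPKM. These values are scaled by library totals, so levels at 39 °C stand lower in FPKM than in TMM-scaled CPM. PIF3 ranged 20.3-fold in FPKM (10.4-fold in CPM), from 53.9 FPKM in WT under NaCl down to 2.65 in exa1-1 at 39 °C. Its first and second groups (WT and exa1-1 under NaCl) overlapped, as did the lowest pair (WT and exa1-1 at 39 °C), and every other pair of neighbours in the order was separate. PIF4 ranged 8.18-fold in FPKM (17.0-fold in CPM), highest in WT at 39 °C (17.3 FPKM) and lowest in exa1-1 on 1/2 MS (2.12 FPKM), and both end groups were separate from their neighbours. PIF5 ranged 6.92-fold in FPKM (3.22-fold in CPM), from 27.4 FPKM in WT on 1/2 MS to 3.96 in exa1-1 at 39 °C, and only its top pair overlapped (WT on 1/2 MS and WT at 23 °C). PIF7 ranged 3.49-fold in FPKM, with an overlapping top pair (exa1-1 and WT under NaCl) and an overlapping lowest pair (exa1-1 and WT at 23 °C). In CPM it ranged 4.06-fold and its highest group was WT at 39 °C (20.7 CPM). PIF1 was highest in exa1-1 at 23 °C (10.4 FPKM) and its first 4 groups, all unstressed, overlapped each with the next. PIF8 was highest in WT on 1/2 MS (4.61 FPKM), with exa1-1 on 1/2 MS overlapping it. HFR1 was highest in WT at 23 °C (4.07 FPKM), apart from the next group. In CPM the highest group of HFR1 was WT at 39 °C (5.77 CPM), which overlapped WT at 23 °C (5.54 CPM). PIL1 was highest in WT on 1/2 MS (1.76 FPKM), overlapping with WT under NaCl, and at 39 °C it was near the limit of detection, with 7 counts summed over the 3 libraries of either genotype.

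**Figure D1:**
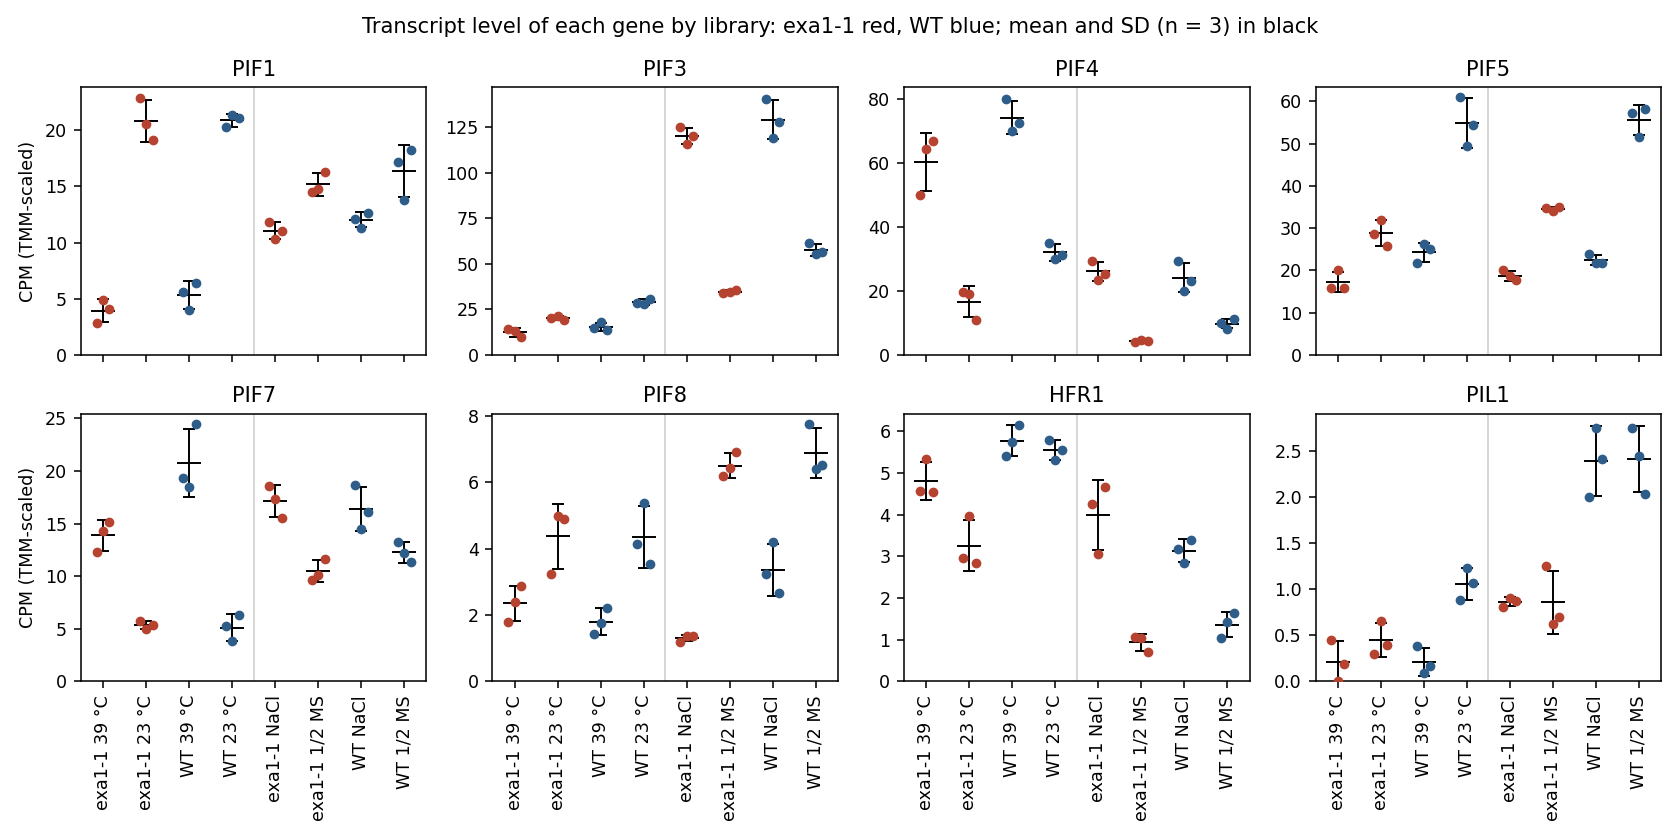
Level of each gene in every library, in CPM on TMM-scaled library sizes (linear axes that start at 0 and differ between genes); points are libraries, and the black bar and whiskers are the mean and SD of 3. PIF3 peaks under NaCl and PIF4 at 39 °C in both genotypes, and PIF5 is lower in exa1-1 than in WT in all 4 conditions.

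The first comparison asked how exa1-1 differed from WT in unstressed seedlings. On 1/2 MS, 4 of the 8 genes were lower in exa1-1 (PIF3, PIF4, PIF5 and PIL1) and 0 were higher, beside 10.1% of 21462 genes called lower and 8.14% called higher. At 23 °C, 5 of the 8 were lower (the same 4 genes and HFR1) and 0 higher, beside 11.2% of 20972 genes called lower and 8.27% higher. The median difference over the 21462 genes on 1/2 MS was 0.00 on the log2 scale. PIF1 and PIF8 passed in neither set.

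PIF4, the factor best known for growth in warmth, had 4.18, 4.59 and 4.25 CPM in exa1-1 on 1/2 MS, against 10.1, 8.25 and 11.1 CPM in WT. It was 2.25-fold lower in exa1-1, a log2 difference of -1.17 ± 0.13 (adjusted p = 1.22e-05), and the groups did not overlap. At 23 °C it had 19.8, 19.1 and 11.1 CPM in exa1-1, against 35.1, 29.8 and 31.2 CPM in WT, with all exa1-1 libraries below all WT libraries. The third exa1-1 library was the lowest of them. The log2 difference was -0.94 ± 0.28 (adjusted p = 0.000228), and it was -0.70 without that library.

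PIF5, a promoter of elongation in shade, had 34.8, 34.0 and 34.9 CPM in exa1-1 on 1/2 MS, against 57.3, 51.6 and 58.1 CPM in WT. The exa1-1 libraries lay within 1 CPM of each other and below all WT libraries, and the log2 difference was -0.68 ± 0.05 (adjusted p = 3.33e-08). At 23 °C it had 28.7, 32.0 and 25.7 CPM in exa1-1, against 61.0, 49.4 and 54.3 CPM in WT, again without overlap (log2 difference -0.93 ± 0.13, adjusted p = 3.19e-06).

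PIF3, the founding member of the family, had 33.8, 34.7 and 35.9 CPM in exa1-1 on 1/2 MS, against 61.6, 55.3 and 56.4 CPM in WT. The groups were far apart relative to their spread (log2 difference -0.73 ± 0.05, adjusted p = 3.33e-08). At 23 °C it had 20.4, 21.5 and 19.2 CPM in exa1-1, against 28.7, 27.9 and 30.7 CPM in WT. These groups did not overlap either, and the log2 difference was -0.52 ± 0.06 (adjusted p = 0.00128). Limma on log2(FPKM + 0.1) gave an adjusted p of 0.0557 for this last difference.

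PIL1, an early marker of shade, had 1.25, 0.617 and 0.702 CPM in exa1-1 on 1/2 MS, against 2.74, 2.45 and 2.03 CPM in WT. That is 16 to 28 counts in an exa1-1 library and 51 to 69 in a WT library, without overlap (log2 difference -1.51 ± 0.31, adjusted p = 0.000165). At 23 °C it had 0.291, 0.653 and 0.394 CPM in exa1-1, against 0.878, 1.23 and 1.07 CPM in WT. These are 7 to 16 counts per exa1-1 library and 17 to 28 per WT library, and the call (log2 difference -1.23 ± 0.31, adjusted p = 0.0449) was lost in 12 of 21 alternatives, among them 7 of the 12 in which 1 library was left out.

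HFR1, the inhibitor that pairs with PIFs, had 2.96, 3.96 and 2.84 CPM in exa1-1 at 23 °C, against 5.79, 5.30 and 5.55 CPM in WT. All exa1-1 libraries were below all WT libraries (log2 difference -0.77 ± 0.15, adjusted p = 0.00162). On 1/2 MS the groups overlapped, at 0.702 to 1.07 CPM in exa1-1 and 1.03 to 1.63 CPM in WT, and the difference of -0.54 ± 0.25 did not pass (adjusted p = 0.168). PIF7, which acts early in shade, did not pass in either set, with -0.22 ± 0.10 on 1/2 MS and 0.06 ± 0.22 at 23 °C. PIF1, the repressor of seed germination in darkness, had -0.11 ± 0.13 on 1/2 MS and -0.00 ± 0.08 at 23 °C. PIF8 had -0.08 ± 0.10 on 1/2 MS and 0.00 ± 0.26 at 23 °C.

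**Figure D2:**
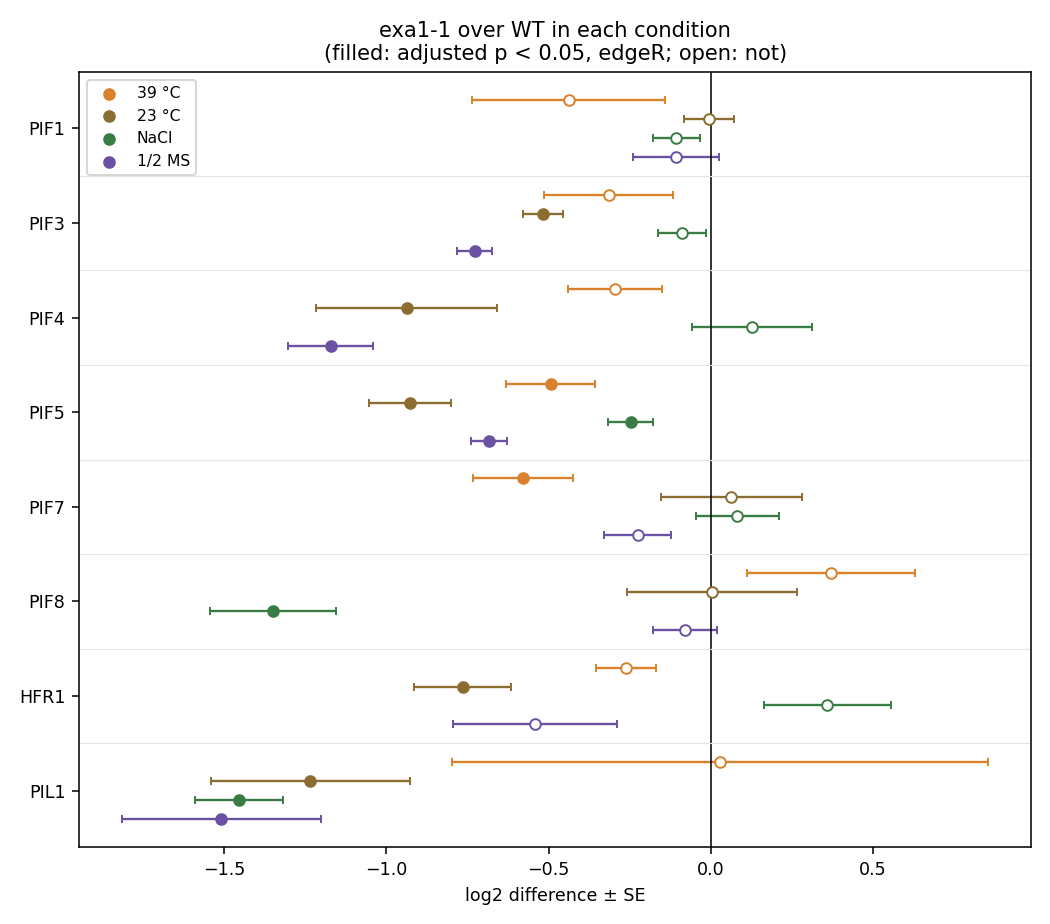
Difference between exa1-1 and WT for each gene in each condition (log2, x axis; whiskers are SE over 3 against 3 libraries). Filled points passed the edgeR test at an adjusted p under 0.05, and these are all left of 0, where exa1-1 is lower.

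A list of 22 shade and growth genes downstream of PIFs was read in the same contrasts. The list was chosen with earlier results of these data known, so its counts are a description and not independent support. Of these, 20 were tested, and PRE1 and PRE5 had too few counts. On 1/2 MS, 16 of the 20 were lower in exa1-1 and 0 were higher, beside 10.1% of all genes tested called lower and 8.14% higher. The median log2 difference was -0.82, against 0.00 over all genes tested. Leaving out 1 library gave 12 to 16 lower. At 23 °C, 10 were lower and 0 higher (7 to 11 lower on leaving out 1 library), with a median of -0.60. Under NaCl 11 were lower (median -0.59) and at 39 °C 4 were lower (median -0.72), and 0 were higher in either. Of all genes tested, 11.2% were called lower at 23 °C, 13.6% under NaCl and 11.7% at 39 °C.

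The named genes of that list include targets that PIFs are known to bind. ATHB2, a homeodomain factor induced by shade, averaged 5.51 CPM in exa1-1 and 14.8 CPM in WT on 1/2 MS (log2 -1.42 ± 0.08). Its relative HAT2 averaged 17.0 CPM in exa1-1 and 35.3 CPM in WT (-1.05 ± 0.08). IAA19, an auxin-induced repressor, averaged 5.84 CPM in exa1-1 and 15.3 CPM in WT (-1.38 ± 0.21). XTH15, a cell wall enzyme, averaged 24.7 CPM in exa1-1 and 68.3 CPM in WT (-1.46 ± 0.09). IAA19 and HAT2 were also lower in exa1-1 at 39 °C, by -1.03 ± 0.08 and -0.84 ± 0.07, and IAA29 was lower under NaCl, at 0.847 CPM in exa1-1 and 3.42 CPM in WT. Green tissue markers, summed over 8 genes, were also lower in exa1-1 on 1/2 MS, at 7566 to 8134 CPM against 9505 to 10718 CPM in WT. Root markers, summed over 10 genes, were at 2061 to 2264 CPM in exa1-1 and 2003 to 2250 CPM in WT. These sums mostly follow their most abundant genes. In WT on 1/2 MS the root marker PYK10 averaged 1967 CPM, and the green markers RBCS1A and LHCB1.3 averaged 4026 and 3786 CPM. Of the green markers 6 were lower and 0 higher, and of the root markers 3 were higher and 1 lower. Of all genes tested, 10.1% were called lower and 8.14% higher. Their part in the differences of the PIF genes was not tested.

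**Figure D3:**
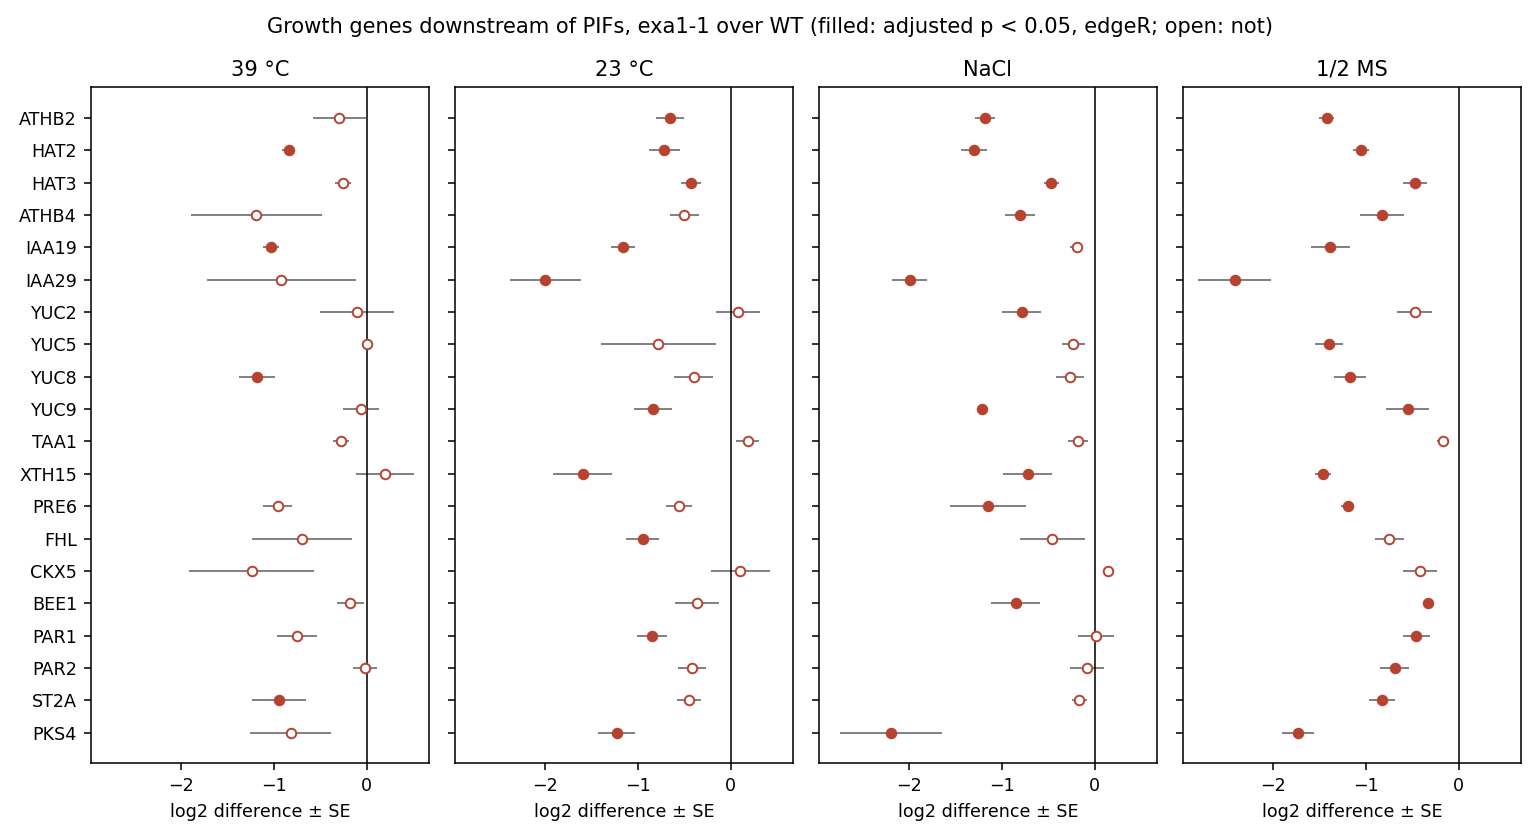
Difference between exa1-1 and WT (log2, x axis; whiskers are SE) for the 20 tested shade and growth genes downstream of PIFs, with a panel per condition; filled points passed the edgeR test. All filled points lie left of 0, with 4, 10, 11 and 16 of them at 39 °C, at 23 °C, under NaCl and on 1/2 MS. The list was chosen with earlier results of these data known.

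Partners of the PIFs were read in the same way, from lists also chosen with earlier results of these data known. Of the 5 DELLA genes, GAI and RGA were lower in exa1-1 on 1/2 MS, by -0.81 ± 0.07 and -0.22 ± 0.06, and GAI was the 1 called at 23 °C (-0.65 ± 0.07). GAI and RGA are repressors of gibberellin responses that block PIFs. Of 7 further light-signalling factors, HY5 and HYH were higher on 1/2 MS, by 0.92 ± 0.12 and 0.54 ± 0.09. HY5, a bZIP factor that promotes greening and competes with PIFs for G-boxes, averaged 15.6 CPM in exa1-1 and 8.21 CPM in WT. It was also higher in exa1-1 at 23 °C (0.60 ± 0.10) and under NaCl (0.43 ± 0.14). Under NaCl, leaving out 1 library gave 0 to 2 higher among the 7 factors, so the call of HY5 there can be lost. Among 3 related bHLH genes, PIF6 was lower on 1/2 MS, at 2.36 CPM in exa1-1 and 7.08 CPM in WT (-1.59 ± 0.17), and SPT and ALC did not pass. Of the 9 tested greening genes that PIFs repress, 5 were lower and 1 was higher in exa1-1 on 1/2 MS, among them PSY, the entry enzyme of carotenoid synthesis (-0.53 ± 0.07), and PORB, a chlorophyll synthesis enzyme (-0.44 ± 0.06). Leaving out 1 library gave 5 lower and 0 to 1 higher there. At 23 °C, 1 was lower (HEMA1, -0.26 ± 0.06) and 2 were higher (PORC and GLK1, 0.48 ± 0.21 and 0.50 ± 0.19). The 1 lower gene at 23 °C became 0 when scaled by totals alone and 0 to 3 on leaving out 1 library. Under NaCl 8 of the 9 were lower in exa1-1 and at 39 °C 6 were, and 0 were higher in either. Of all genes tested, 10.1% were called lower and 8.14% higher on 1/2 MS, and 11.2% lower and 8.27% higher at 23 °C. The shares were 13.6% lower and 15.9% higher under NaCl, and 11.7% lower and 12.7% higher at 39 °C.

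The second comparison asked how 60 min of 200 mM NaCl changed the genes. In both genotypes PIF3, PIF4, PIF7 and HFR1 rose, PIF1, PIF5 and PIF8 fell, and PIL1 did not pass. So 4 of 8 rose and 3 fell in each genotype. Of all 21462 genes, 35.7% rose and 36.2% fell in exa1-1, and 35.3% rose and 35.6% fell in WT, so the share of members called is near that background. The same counts came from leaving out any 1 library.

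PIF4 had 29.4, 23.4 and 25.4 CPM in exa1-1 under NaCl, against 4.18 to 4.59 CPM in exa1-1 on 1/2 MS, a 6.00-fold rise (log2 2.59 ± 0.10, adjusted p = 3.29e-13). The WT libraries had 29.2, 20.1 and 23.2 CPM under NaCl, against 8.25 to 11.1 CPM on 1/2 MS, a 2.44-fold rise (log2 1.29 ± 0.20, adjusted p = 5.16e-09). The NaCl libraries of the genotypes overlapped, while the 1/2 MS libraries did not. The rise in exa1-1 was 2.46 times that in WT (interaction, SE 0.23 on the log2 scale, adjusted p = 0.000107).

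PIF3 had 125, 116 and 120.4 CPM in exa1-1 under NaCl, against 33.8 to 35.9 CPM on 1/2 MS (log2 1.79 ± 0.04). The WT libraries had 140.5, 119 and 128 CPM under NaCl, against 55.3 to 61.6 CPM on 1/2 MS (log2 1.15 ± 0.08). Again the NaCl libraries of the genotypes overlapped, and the interaction was 0.64 ± 0.09 (adjusted p = 3.13e-05). Under NaCl, exa1-1 did not pass against WT for PIF4 (0.13 ± 0.18) or PIF3 (-0.09 ± 0.07). PIF4 passed as higher in exa1-1 there without WT NaCl replicate 1 (0.28, adjusted p = 0.0470).

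PIF8, a little studied member of the family, had 1.19, 1.36 and 1.37 CPM in exa1-1 under NaCl, against 6.18 to 6.90 CPM on 1/2 MS. This 4.96-fold fall was larger than that in WT, where PIF8 had 3.23, 4.21 and 2.67 CPM under NaCl, against 6.40 to 7.75 CPM on 1/2 MS. The log2 changes were -2.31 ± 0.08 in exa1-1 and -1.04 ± 0.20 in WT, and the interaction was -1.27 ± 0.22 (adjusted p = 0.000982). Under NaCl PIF8 was lower in exa1-1 than in WT, without overlap (-1.35 ± 0.19, adjusted p = 1.62e-05), with 28 to 33 counts per exa1-1 library and 63 to 101 per WT library.

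PIF5 had 20.0, 18.7 and 17.7 CPM in exa1-1 under NaCl, against 34.0 to 34.9 CPM on 1/2 MS (log2 -0.88 ± 0.05). WT libraries held 23.9, 21.7 and 21.9 CPM under NaCl, against 51.6 to 58.1 CPM on 1/2 MS (log2 -1.32 ± 0.07). The fall was smaller in exa1-1, by 0.44 ± 0.09 (interaction, adjusted p = 0.00232). Under NaCl it was still lower in exa1-1 than in WT, by -0.25 ± 0.07 (adjusted p = 0.00847), without overlap.

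HFR1 had 4.25, 3.04 and 4.65 CPM in exa1-1 under NaCl, against 0.702 to 1.07 CPM on 1/2 MS (log2 2.09 ± 0.25). In WT it had 3.18, 2.83 and 3.39 CPM under NaCl, against 1.03 to 1.63 CPM on 1/2 MS (log2 1.19 ± 0.20). All NaCl libraries were above all 1/2 MS libraries of their genotype, and the interaction of 0.90 ± 0.32 did not pass (adjusted p = 0.0762). It passed without WT 1/2 MS replicate 1 (adjusted p = 0.0436) or exa1-1 NaCl replicate 2 (adjusted p = 0.0396). PIF7 rose by 0.71 ± 0.11 in exa1-1 and 0.41 ± 0.12 in WT, and PIF1 fell by 0.45 on the log2 scale in either genotype. PIL1 stayed at 0.808 to 0.904 CPM in exa1-1 and 2.00 to 2.75 CPM in WT under NaCl, so the genotypes did not overlap (-1.45 ± 0.14, adjusted p = 0.000145). In all, 3 of 8 genes (PIF5, PIF8 and PIL1) were lower in exa1-1 under NaCl and 0 were higher, beside 13.6% of all genes called lower and 15.9% called higher. Interactions passed for 4 of the 8 (3 higher and 1 lower), beside 6.02% of all genes called higher and 5.16% lower.

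**Figure D4:**
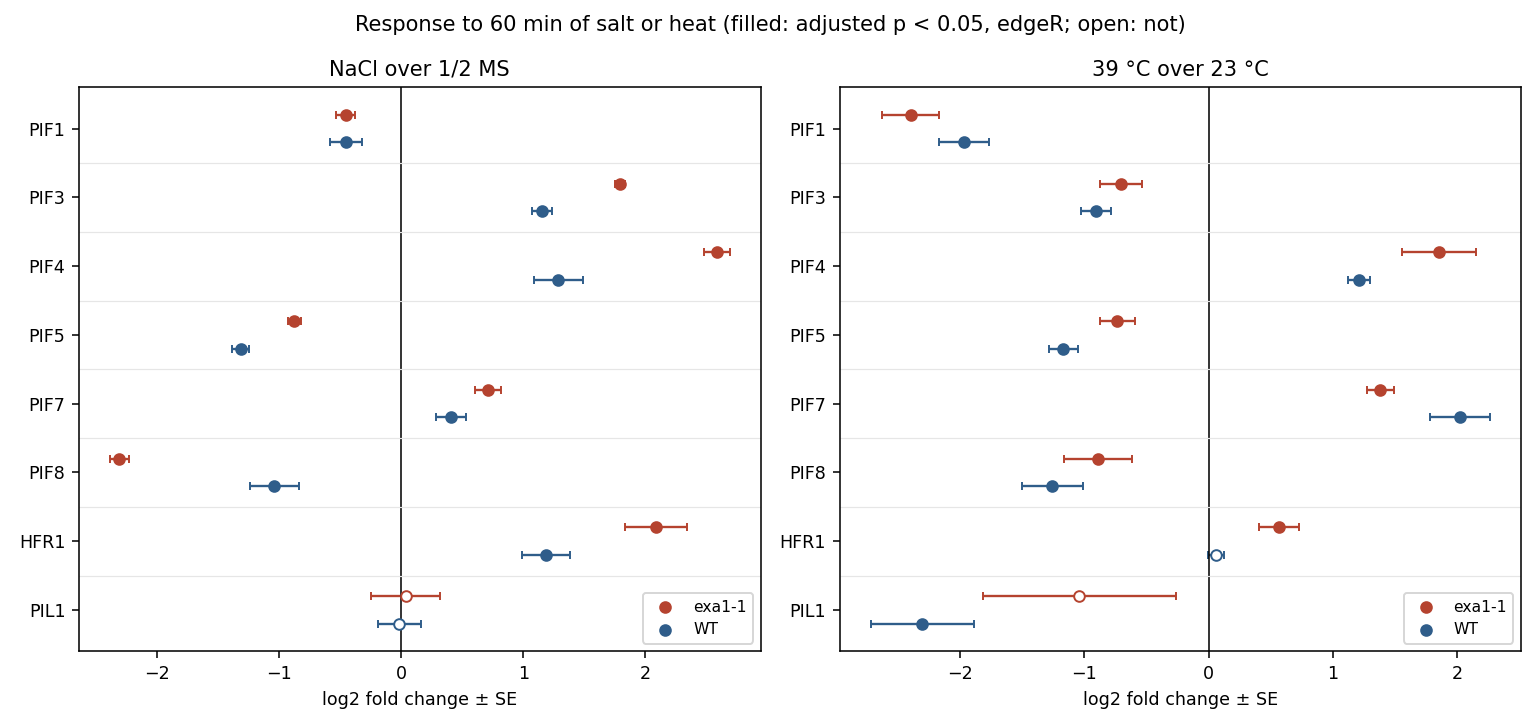
Response of each gene to NaCl (left) and to 39 °C (right) in exa1-1 and WT (log2 fold change, x axis; whiskers are SE; filled points passed the edgeR test). Under NaCl the PIF3, PIF4 and PIF5 points are further right in exa1-1 and the PIF8 point is further left, and these interactions passed. The HFR1 and PIF7 points are also further right in exa1-1, but their interactions did not pass. At 39 °C PIF4 and PIF7 lie right of 0 in both genotypes.

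The growth genes downstream of PIFs moved in both directions under NaCl, where 35.7% of all genes tested rose and 36.2% fell in exa1-1. In WT 35.3% of all genes rose and 35.6% fell. Of the 20 tested growth genes, 10 fell and 5 rose in exa1-1 (median log2 change -0.25), and 12 fell and 2 rose in WT (median -0.59). All genes tested had medians of -0.01 in both genotypes. XTH15 had 2.78 CPM in exa1-1 under NaCl against 24.7 CPM on 1/2 MS (-3.15 ± 0.19), and 4.66 CPM in WT under NaCl against 68.3 CPM on 1/2 MS (-3.89 ± 0.20). ST2A, a sulfotransferase gene induced by PIFs, rose by 1.77 ± 0.15 in exa1-1 and 1.11 ± 0.06 in WT. YUC9, an auxin synthesis enzyme, averaged 13.3 CPM in WT under NaCl and 2.80 CPM in WT on 1/2 MS. The response differed with genotype for 5 of the 20, each with a higher value in exa1-1 (IAA19, ST2A, YUC5, YUC8 and XTH15, by 0.66 to 1.19). Without single libraries 3 to 5 passed as higher and 0 or 1 as lower. Of all genes tested, 6.02% passed as higher and 5.16% as lower. PIF6 rose under NaCl by 3.70 ± 0.05 in exa1-1 and by 2.66 ± 0.18 in WT, and its interaction was 1.05 ± 0.19. It reached 30.6 CPM in exa1-1 and 44.9 CPM in WT. Of the 9 tested greening genes, 7 rose and 1 fell in exa1-1, and 8 rose and 1 fell in WT, led in WT by CHLH, a subunit of magnesium chelatase (1.27 ± 0.07). Of the 5 DELLA genes, 2 rose and 2 fell in each genotype, and GAI fell by 0.39 in exa1-1 and 0.81 in WT on the log2 scale.

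Tissue markers moved with salt. Root markers summed to 1133 to 1172 CPM in exa1-1 under NaCl against 2061 to 2264 CPM on 1/2 MS, and to 939 to 966 CPM in WT under NaCl against 2003 to 2250 CPM on 1/2 MS. PYK10 alone averaged 849 CPM in WT under NaCl and 1967 CPM in WT on 1/2 MS, so the root sums mostly follow this gene. Of the 10 root markers, 9 fell and 1 rose in exa1-1, and 8 fell and 1 rose in WT. The 1 that rose in WT was TIP2;3, with 31.8 CPM under NaCl against 4.05 CPM on 1/2 MS. Green markers summed to 10525 to 11064 CPM in exa1-1 under NaCl against 7566 to 8134 CPM on 1/2 MS, and to 16407 to 19416 CPM in WT under NaCl against 9505 to 10718 CPM on 1/2 MS. Of these 8, 7 rose in exa1-1 and 8 in WT. Among all genes tested, 35.7% rose and 36.2% fell in exa1-1, and 35.3% rose and 35.6% fell in WT. The interaction of salt and genotype passed for 7 of the 8 green markers, all lower (median -0.42), and for 5 of the 9 greening genes, all lower. GLK1 is in both lists and is counted in each. Of all genes tested, 5.16% passed as lower. Under NaCl all 8 green markers were lower in exa1-1 than in WT, beside 13.6% of all genes tested called lower. Their part in the changes of the PIF genes was not tested.

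The third comparison asked how 60 min at 39 °C changed the genes relative to 23 °C. PIF4 and PIF7 rose in both genotypes, PIF1, PIF3, PIF5 and PIF8 fell in both, PIL1 fell in WT, and HFR1 rose in exa1-1. That is 3 of 8 up and 4 down in exa1-1, and 2 up and 5 down in WT. Scaled by totals alone, it is 2 up and 6 down in each genotype. Of all 20972 genes, 38.4% rose and 41.8% fell in exa1-1, and 38.4% rose and 41.6% fell in WT, so the members' share is again near the background. These values rest on TMM scaling. When libraries were scaled by their totals alone, the median log2 change over the tested genes moved by -0.995 in exa1-1 and -0.88 in WT, and all values below moved down with it.

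PIF7, whose messenger is known to be translated more in warmth, had 12.3, 14.3 and 15.2 CPM in exa1-1 at 39 °C, against 5.74, 4.93 and 5.38 CPM at 23 °C (log2 1.38 ± 0.11). In WT it had 19.4, 18.5 and 24.4 CPM at 39 °C, against 5.22, 3.81 and 6.31 CPM at 23 °C (log2 2.02 ± 0.24). All 39 °C libraries were above all 23 °C libraries of their genotype. AT5G61260, on the opposite strand, overlaps PIF7 by 318 bases and had 10 to 57 counts per library. Scaled by totals alone, the changes were 0.38 (adjusted p = 0.0281) in exa1-1 and 1.14 in WT. At 39 °C PIF7 was lower in exa1-1 than in WT (-0.58 ± 0.15, adjusted p = 0.00808), a call that was lost without WT 39 °C replicate 3 (-0.44, adjusted p = 0.0635).

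PIF4 had 49.9, 64.3 and 66.8 CPM in exa1-1 at 39 °C, against 19.8, 19.1 and 11.1 CPM at 23 °C (log2 1.86 ± 0.30). In WT it had 79.8, 69.9 and 72.4 CPM at 39 °C, against 35.1, 29.8 and 31.2 CPM at 23 °C (log2 1.21 ± 0.09). The rises came to 3.62-fold in exa1-1 and 2.32-fold in WT. Scaled by totals alone, they were 0.86 in exa1-1 and 0.33 (adjusted p = 0.0294) in WT on the log2 scale. The rise in WT did not pass with limma on FPKM, which carries the same scaling (0.31 to 0.33, adjusted p from 0.0838 to 0.114).

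HFR1 had 4.57, 5.34 and 4.53 CPM in exa1-1 at 39 °C, against 2.96, 3.96 and 2.84 CPM at 23 °C (log2 0.57 ± 0.16, adjusted p = 0.00507). WT libraries held 5.41, 5.74 and 6.15 CPM at 39 °C, against 5.79, 5.30 and 5.55 CPM at 23 °C, and these overlapped (log2 0.06 ± 0.06, adjusted p = 0.719). Both turn to falls when scaled by totals alone, to -0.43 in exa1-1 (adjusted p = 0.0256) and -0.82 in WT (adjusted p = 9.24e-05). The direction of HFR1 in heat is therefore set by the scaling.

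The members that fell did so under both scalings. PIF1 fell most among the genes with ample counts, to 2.87, 4.88 and 4.07 CPM in exa1-1 at 39 °C, against 22.8, 20.5 and 19.1 CPM at 23 °C (log2 -2.40 ± 0.23). In WT it fell to 5.60, 3.98 and 6.41 CPM at 39 °C, against 20.2, 21.3 and 21.0 CPM at 23 °C (log2 -1.97 ± 0.20). An opposite-strand gene, AT2G20170, overlaps PIF1 by 334 bases, and had 0 to 10 counts per library. How the counting treated reads in such overlaps is not stated. PIF3 fell by 0.70 in exa1-1 and 0.91 in WT, PIF5 by 0.73 in exa1-1 and 1.17 in WT, and PIF8 by 0.89 in exa1-1 and 1.26 in WT, all on the log2 scale. PIL1 had 5, 0 and 2 counts in the exa1-1 libraries at 39 °C, against 7, 16 and 9 at 23 °C, and did not pass (adjusted p = 0.159). It had 4, 1 and 2 counts in WT at 39 °C, against 17, 28 and 25 at 23 °C, and fell (log2 -2.30 ± 0.42, adjusted p = 0.00146). In exa1-1 it passed without exa1-1 39 °C replicate 1 (-2.19, adjusted p = 0.0360).

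The interaction of heat and genotype passed for 0 of the 8 genes by edgeR, beside 4.36% of all genes called higher and 3.69% lower. At an unadjusted p under 0.05 there were 4, with PIF4 at 0.64 ± 0.31 (adjusted p = 0.0585), PIF7 at -0.64 ± 0.27 (0.0824), PIF5 at 0.43 ± 0.19 (0.0903) and HFR1 at 0.50 ± 0.18 (0.196). DESeq2 called 1, PIF4 (0.65, adjusted p = 0.0450). PIF4 also passed without exa1-1 23 °C replicate 1 or 2 or exa1-1 39 °C replicate 1 (adjusted p from 0.0264 to 0.0438). PIF7 passed without WT 23 °C replicate 3 (-0.86, adjusted p = 0.0344). It also passed by totals alone (0.0362), without a filter on low counts (0.0494), with a replicate block (0.0487) and in 1 fit over 24 libraries (0.0433). That fit also called PIF4 (0.0360) and PIF5 (0.0387), and PIF4 passed without a filter on low counts (0.0114). At 39 °C, exa1-1 was lower than WT for 2 of 8 genes, PIF5 and PIF7, and higher for 0, beside 11.7% of all genes called lower and 12.7% higher. PIF5 had 15.9, 20.1 and 15.9 CPM in exa1-1, against 21.7, 26.2 and 25.0 CPM in WT (-0.49 ± 0.14, adjusted p = 0.00584), without overlap. PIF1, PIF3 and PIF4 did not pass at 39 °C, although each did without 1 library: PIF1 without WT 39 °C replicate 2 (adjusted p = 0.0330), PIF3 without exa1-1 39 °C replicate 1 (0.0457) and PIF4 without exa1-1 23 °C replicate 3 (0.0182).

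Genes around the PIFs moved at 39 °C, as most genes did. Of all genes tested, 38.4% rose in either genotype, and 41.8% fell in exa1-1 and 41.6% in WT. Of the 20 tested growth genes downstream of PIFs, 17 fell and 1 rose in exa1-1 (median -1.46), and 16 fell and 1 rose in WT (median -1.53), while the medians of all genes tested were -0.08 and -0.07. Scaled by totals alone, 19 fell in exa1-1 and 20 in WT, and 0 rose. PAR1, an atypical bHLH inhibitor induced by shade, had 1.43 CPM in exa1-1 at 39 °C against 18.4 CPM at 23 °C (-3.67 ± 0.19), and 2.42 CPM in WT at 39 °C against 33.0 CPM at 23 °C (-3.77 ± 0.19). The DELLA genes fell as well, 4 of 5 in exa1-1 and 5 of 5 in WT, led by GAI (-1.76 ± 0.07 in exa1-1 and -2.22 ± 0.08 in WT). HY5 rose by 1.82 ± 0.06 in exa1-1 and 2.57 ± 0.10 in WT, and its rise was smaller in exa1-1 by 0.74 (interaction -0.74 ± 0.12). Of the 9 tested greening genes, 5 rose and 3 fell in exa1-1 and 6 rose and 1 fell in WT, but scaled by totals alone 3 rose and 6 fell in either genotype. All 3 related bHLH genes, PIF6, SPT and ALC, fell in both genotypes. Of the 10 root markers 7 fell and 0 rose in either genotype, and of the 8 green markers 7 rose and 1 fell in exa1-1 and 8 rose in WT. Scaled by totals alone, all 10 root markers fell in either genotype, and of the green markers 5 rose and 2 fell in exa1-1 and 5 rose and 1 fell in WT. Root markers summed to 474 to 500.1 CPM in exa1-1 at 39 °C against 1706 to 2369 CPM at 23 °C, and to 420.2 to 456 CPM in WT at 39 °C against 1525 to 1545 CPM at 23 °C. Most of the WT sums came from PYK10, with 352 CPM at 39 °C and 1380 CPM at 23 °C. Green markers summed to 43218 to 45409 CPM in exa1-1 at 39 °C against 16190 to 18588 CPM at 23 °C, and to 48884 to 57159 CPM in WT at 39 °C against 21154 to 22396 CPM at 23 °C. Their part in these changes was not tested.

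The balance between PIF4 and PIF5, which have overlapping roles in growth, moved the same way in both stresses. The ratio of PIF4 to PIF5 in FPKM was 3.46 ± 0.585 in exa1-1 at 39 °C against 0.564 ± 0.129 at 23 °C (SD, n = 3). In WT it was 3.04 ± 0.519 at 39 °C against 0.577 ± 0.0168 at 23 °C (SD, n = 3). In the salt series it was 1.37 ± 0.114 in exa1-1 under NaCl against 0.124 ± 0.00802 on 1/2 MS, and 1.05 ± 0.146 in WT under NaCl against 0.173 ± 0.0154 on 1/2 MS (SD, n = 3). A ratio within a library does not depend on how libraries are scaled. The stressed libraries were all above the unstressed libraries of their set, and the genotypes were separate on 1/2 MS and under NaCl and overlapped at 23 °C and 39 °C.

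**Figure D5:**
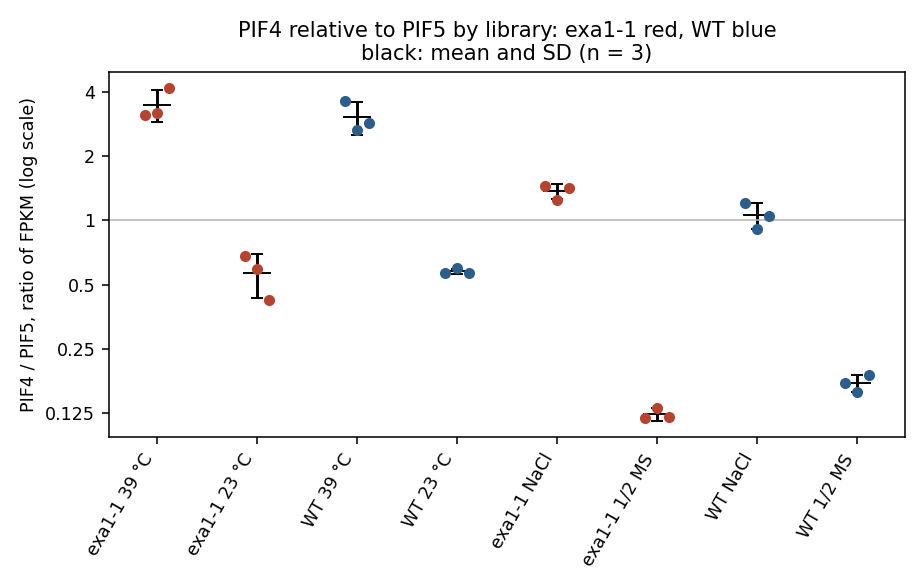
Ratio of PIF4 to PIF5 FPKM in every library (log2-spaced axis); points are libraries, and the black bar and whiskers are the mean and SD of 3. The ratio is above 1 in all 39 °C libraries and at most 0.189 in all unstressed 1/2 MS libraries.

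The unstressed controls of the heat and salt series were compared last, since both are untreated seedlings of the same genotypes. The salt controls are labelled by medium (1/2 MS) and the heat controls by temperature (23 °C). The labels do not say how the sets differ, so set and handling cannot be told apart. At 23 °C relative to 1/2 MS, 3 of the 8 genes were higher and 5 lower in exa1-1, beside 32.9% of 21262 genes higher and 32.7% lower. In WT 3 were higher and 4 lower, beside 33.7% higher and 35.3% lower. HFR1 was higher at 23 °C by 1.79 ± 0.23 in exa1-1 and 2.00 ± 0.18 in WT, and PIF4 by 1.93 ± 0.27 in exa1-1 and 1.68 ± 0.14 in WT. PIF3 was lower at 23 °C by -0.78 ± 0.05 in exa1-1 and -1.01 ± 0.06 in WT, and PIF7 by -0.98 ± 0.10 in exa1-1 and -1.28 ± 0.22 in WT. These differences between controls were as large as several stress responses: PIF4 had 11.1 to 19.8 CPM in exa1-1 at 23 °C, more in 2 of 3 libraries than any WT library on 1/2 MS (8.25 to 11.1 CPM). The growth genes downstream of PIFs also differed between the control sets, with 5 higher and 9 lower at 23 °C in exa1-1 and 4 higher and 11 lower in WT. PIF1 was higher by 0.45 ± 0.09 in exa1-1 and 0.33 ± 0.12 in WT, and the value in WT was 0.18 (adjusted p = 0.110) when scaled by totals alone. PIF5 was lower in exa1-1 (-0.27 ± 0.09) and did not pass in WT (-0.05 ± 0.10), where it passed with total counts (-0.20, adjusted p = 0.0231). PIL1 in exa1-1 (-0.91 ± 0.39, adjusted p = 0.0335) did not pass without exa1-1 1/2 MS replicate 1 or without exa1-1 23 °C replicate 1 or 3. The difference between exa1-1 and WT did not itself differ between the sets at an adjusted p under 0.05 for any of the 8 genes by edgeR, beside 2.06% of all genes called higher and 1.45% lower. At an unadjusted p under 0.05 there was 1, PIF3 (0.23 ± 0.08, adjusted p = 0.154).

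The genes with profiles most like each member were found over the 24 libraries, among 17406 genes with a mean of at least 1 log2 CPM. Likeness was the root mean square difference of log2 CPM after each gene's own mean was removed. PIF3 was nearest to SZF1, a zinc finger gene of the salt response, at 0.19, and PIF7 to CIPK7, a protein kinase gene, at 0.20. PIF5 was nearest to AT1G66180 at 0.20 and PIF1 to AT2G37930 at 0.21, followed by ETP1 and ARR4. HFR1 was nearest to the aquaporin gene PIP2A at 0.27, PIF8 to AT3G23740 at 0.28 and PIF4 to the ferritin gene FER1 at 0.32. PIL1, with the fewest counts, had no near profile: its best were PIN7, an auxin transporter gene, WAK1 and HAT2, at 0.59 to 0.63. For comparison, the SD of log2 CPM over the 24 libraries was 0.63 in PIF5 and 1.297 in PIL1. These are descriptions, since all genes share the same libraries.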

How the data were processed

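Strand-specific mRNA libraries of whole seedlings were sequenced in 24 samples, grouped by the genotype and treatment in the labels. The deposited gene counts are whole numbers per gene and library without normalization, and per the submitters' processing notes HISAT2 2.0.4, HTSeq 0.6.1p1 and the build TAIR10 were used; the sources used here give neither the counting mode nor the strand setting, so reads of overlapping genes (PIF1 with AT2G20170, PIF7 with AT5G61260) may be shared. The deposited FPKM values were the authors' own, and in the values equal the count per gene length and library total, with no further scaling. Depth was 17658196 to 20992263 counts per library. Replicate pairs correlated at 0.984 to 0.994 across genes and differed by more than sampling noise.

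Counts were tested with edgeR 4.0.16 (R 4.3.3; quasi-likelihood F test, TMM, default expression filter, Benjamini-Hochberg adjustment over all genes) in 3 fits of 12 libraries: salt series, heat series and both control sets. Each SE was computed from library log2 CPM (prior count 2), and printed CPM use 1 TMM scaling over 24 libraries. The code was tested on simulated data with known changes. Alternatives used DESeq2 1.42.0, limma 3.58.1 on log2(FPKM + 1) or + 0.1, other scalings and filters, a replicate block, 1 fit over 24 libraries and each library left out. Same-numbered libraries did not deviate together. The members, gene lists and named genes were chosen with earlier results of these data known. Up to 4 genes per list and contrast with the smallest adjusted p and genes needed to account for counts of 5 or fewer could be named. So could the 3 most alike genes per member and the most abundant marker genes.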

Additional observations from a re-analysis of the deposited data

Results flagged for a closer look

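The response to NaCl differed between exa1-1 and WT for 4 of the 8 genes, by the interaction term of edgeR's quasi-likelihood test with Benjamini-Hochberg adjustment over 21462 genes. Of all these genes, 6.02% passed as higher and 5.16% as lower. PIF4 rose more in exa1-1, with a difference of responses of 1.3002 ± 0.2258 on the log2 scale (SE, adjusted p = 0.000107). PIF3 also rose more, by 0.64 ± 0.09 (adjusted p = 3.13e-05). PIF5 fell less in exa1-1, a difference of 0.44 ± 0.09 (adjusted p = 0.00232). PIF8 fell more in exa1-1, a difference of -1.27 ± 0.22 (adjusted p = 0.000982). In PIF3 and PIF4 the NaCl libraries of exa1-1 and WT overlapped and the 1/2 MS libraries did not, and in PIF8 the reverse held. All 4 passed under each of the 21 alternatives. Green tissue markers moved with this result: the same interaction passed for 7 of the 8, all lower (median -0.42), as it did for 5 of 9 greening genes. GLK1 is in both lists and is counted in each. The part of tissue markers in the result was not tested.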

How the results depend on the processing

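Over the 21 alternatives, no called difference of a gene changed its sign except HFR1 at 39 °C in exa1-1. Scaled by total counts, HFR1 in heat was -0.43 in exa1-1 and -0.82 in WT; limma on FPKM gave -0.28, -0.39 and -0.28 in exa1-1 and -0.62, -0.79 and -0.62 in WT (pseudocount 1, pseudocount 0.1, no filter). Uncalled values near 0 changed sign: PIL1 under NaCl in exa1-1 (-0.090 by totals; -0.033, -0.047 and -0.033 by limma), PIF1 between genotypes at 23 °C (0.060 by totals, 0.0064 by DESeq2-type size factors, 0.0051 by DESeq2; 0.052, 0.057 and 0.052 by limma), PIL1 between genotypes at 39 °C (-0.017 by totals; -0.0031, -0.075 and -0.0031 by limma) and PIF8 between genotypes at 23 °C (-0.0012 with a replicate block).

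Scaled by totals, counts of the 8 genes (higher, lower) were 2 and 6 in heat in each genotype, 0 and 4 between genotypes at 23 °C, and 2 and 5 between control sets in WT (against 3 and 4). The heat interaction had 1 lower gene by totals, without a filter, with a replicate block and in 1 fit over 24 libraries, and 1 higher gene without a filter and by DESeq2, or 2 in the fit over 24 libraries, which called 2557 genes in all against 1687. The heat response had 1 rise by limma in WT (all 3 settings) and 1 in exa1-1 (no filter). At 23 °C, 3 genes were lower in exa1-1 by limma with pseudocount 0.1. The interaction of genotype and control set had 435 genes called by limma without a filter, against 745. The replicate numbers do not pair the libraries: same-numbered libraries correlated at -0.13 to 0.099 in their deviations from group means, and the block called the PIF7 heat interaction (adjusted p = 0.0487), ended the call of PIL1 between genotypes at 23 °C (adjusted p = 0.0602) and changed no other call of a member.

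Leaving out 1 library at a time gave these ranges on the log2 scale. In the salt series they were -0.14 to 0.095 for PIL1 in WT, -0.18 to 0.36 for PIL1 in exa1-1, -0.16 to 0.39 and -0.10 to 0.090 for the interactions of PIL1 and PIF1, -0.13 to 0.0093 for PIF8 between genotypes on 1/2 MS and -0.0030 to 0.18 for PIF7 under NaCl, where 0 to 1 members were higher. In the heat series they were -0.11 to 0.21 for PIF8, -0.060 to 0.071 for PIF1 and -0.096 to 0.27 for PIF7 between genotypes at 23 °C, and -1.12 to 0.68 for PIL1 at 39 °C, where 1 to 3 members were lower. Heat interactions numbered 965 to 1596 genes, with 0 to 1 members lower and 0 to 1 higher, and 2482 to 4285 genes differed between genotypes at 23 °C. Between control sets, PIF5 in WT ranged from -0.13 to 0.026, and the interactions of PIF8 and PIL1 from -0.035 to 0.29 and from -0.10 to 0.64, with 281 to 919 genes called. Depth limits PIL1 most, at 0 to 5 counts per library at 39 °C.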

Other observations

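Genes that act upstream of PIFs were read in the same contrasts, as values only. Under NaCl 35.7% of all genes tested rose and 36.2% fell in exa1-1, and 35.3% rose and 35.6% fell in WT. At 39 °C 38.4% rose in either genotype, and 41.8% fell in exa1-1 and 41.6% in WT. Of 8 photoreceptor genes, 6 rose and 1 fell under NaCl in both genotypes, the fall being that of CRY1, a blue light receptor (-0.75 in exa1-1 and -0.53 in WT). At 39 °C 3 rose and 4 fell in exa1-1 and 4 rose and 4 fell in WT, and PHYB, the main red light receptor that acts on PIFs, rose by 1.68 in exa1-1 and 1.43 in WT. Scaled by totals alone, 2 rose and 6 fell in either genotype. Of 6 genes of the COP1-SPA complex and DET1, which mark light-signalling factors for degradation, 3 rose and 1 fell under NaCl in exa1-1 and 4 rose and 0 fell in WT. At 39 °C 3 rose and 2 fell in exa1-1 and 4 rose and 1 fell in WT, but scaled by totals alone 2 rose and 4 fell in either genotype. SPA1 rose by 1.88 in exa1-1 and 2.43 in WT, while SPA3 fell in exa1-1 (-0.77) and did not pass in WT (0.25).

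Of 10 clock genes, 5 rose and 1 fell under NaCl in exa1-1 and 5 rose and 3 fell in WT. At 39 °C 6 rose and 3 fell in exa1-1 and 6 rose and 2 fell in WT (5 and 3, and 5 and 5, when scaled by totals alone). GI, a clock gene of the evening, averaged 122 CPM in exa1-1 at 39 °C against 12.1 CPM at 23 °C, and 156 CPM in WT at 39 °C against 15.4 CPM at 23 °C. Between genotypes the direction differed with condition: in exa1-1, 0 clock genes were higher and 6 lower at 39 °C, 0 higher and 5 lower at 23 °C, 4 higher and 1 lower under NaCl, and 1 higher and 2 lower on 1/2 MS. The 5 at 23 °C were 3 when scaled by totals alone and 3 to 6 on leaving out 1 library. Of all genes tested, 8.14% to 15.9% were called higher and 10.1% to 13.6% lower in these genotype comparisons. PRR5 was lower in exa1-1 at 39 °C by -1.29. PIF6 was the 1 related bHLH gene whose difference between genotypes itself differed between the control sets, by 1.496 ± 0.208 (adjusted p = 0.00125, edgeR's quasi-likelihood test): it had 6.03 CPM in exa1-1 and 6.50 CPM in WT at 23 °C, against 2.36 CPM in exa1-1 and 7.08 CPM in WT on 1/2 MS. All adjusted p-values are over all genes tested.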
